A study of Arabidopsis thaliana with 4 samples.

Results

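SWEET9, JMT and AT3G25810 are 3 genes of nectar secretion and floral volatiles, and their transcripts were compared between inflorescences of the Arabidopsis thaliana mutant pistillata and wild-type inflorescences. They were chosen by their measured log2 ratios on these same 4 arrays, which were far below 0, so their own ratios are given as a description, with no test. They are 3 of 5386 genes that had an array probe listing no other gene and values on all 4 arrays. Of the 5784 probes that list 1 gene, with or without values on all 4 arrays, 4 are theirs, since JMT had 2. The PISTILLATA protein is a B-class floral regulator of the MADS-box type, and flowers without it form neither petals nor stamens. Total RNA was hybridised to 4 spotted oligonucleotide arrays of 2 channels, each comparing pistillata RNA directly with wild-type RNA. The labels name neither the pistillata allele, the background strain nor the age of the plants, and they do not say whether the arrays hold separately grown plants. The p-values below therefore cover only how these 4 arrays vary, and that variation may be technical.

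Nectaries of Arabidopsis sit on the receptacle at the base of the stamens and secrete a sugar solution. SWEET9 is the sucrose exporter through which nectary cells release that sugar, and sucrose synthesis inside the cells and a cell wall invertase outside them keep the flow going. JMT transfers a methyl group to jasmonic acid and yields methyl jasmonate, a volatile form of the hormone, and belongs to the SABATH family of carboxyl methyltransferases. AT3G25810 encodes a terpene synthase of the group that makes monoterpenes, volatile compounds of floral scent.

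A ratio has a direction only once its numerator is known, and the labels did not settle it. By their channel order, pistillata RNA was in channel 1 for arrays 1 and 3 but in channel 2 for arrays 2 and 4. The deposited log2 ratio of SWEET9 was instead 5.23 and 4.42 on arrays 1 and 4 but -4.60 and -5.27 on arrays 2 and 3, so that arrays 1 and 4 stood against arrays 2 and 3. AT3G25810 had 3.62, -3.63, -3.30 and 4.61 on arrays 1 to 4, and both JMT probes had the same signs. Over 25018 gene probes with no value at the limits of the table, Pearson's r for arrays labelled in the same order was -0.68 (arrays 1 and 3, and likewise arrays 2 and 4), whereas it was 0.71 for arrays 1 and 4 and 0.77 for arrays 2 and 3. With probes at those limits kept in (26156 in all), these values were -0.29 and -0.05 for the pairs labelled alike. They were 0.49 for arrays 1 and 4 and 0.65 for arrays 2 and 3. The remaining pairs, arrays 1 and 2 and arrays 3 and 4, are labelled in opposite order. Their r was -0.71 and -0.69 without probes at the limits, and -0.30 and 0.01 with them. The points of each correlation are probes of the same arrays and not replicates. Arrays 1 and 4 were therefore multiplied by -1, so that genes of the anther, which pistillata flowers lack, were negative on every array. All further ratios are given in this likely direction, as log2 of pistillata divided by wild type. With the common sign exchanged, every lower value would be a higher one.

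**Figure D1:**
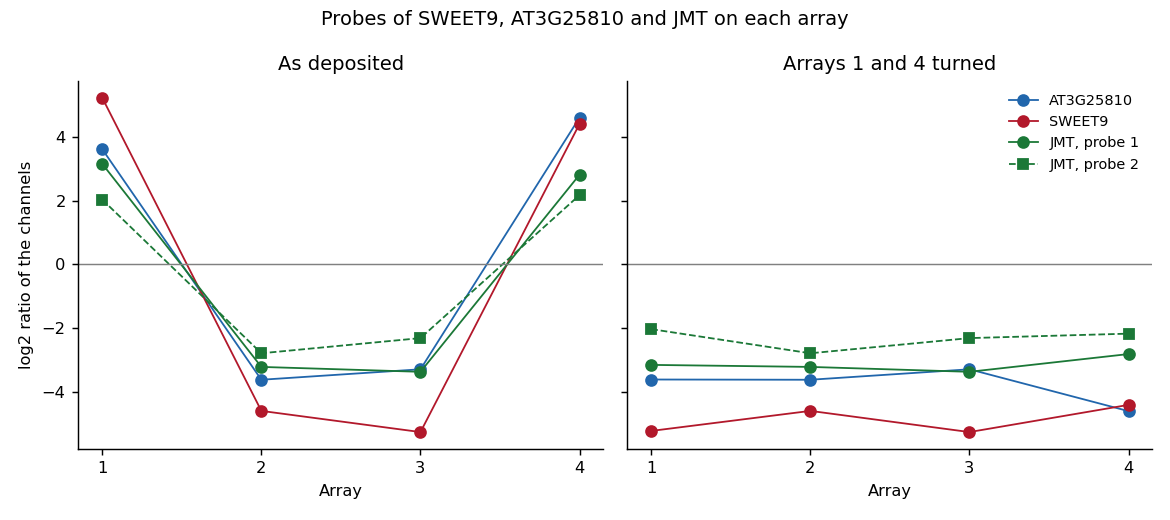
Log2 ratio of the channels (y axis) for the 4 probes of SWEET9, AT3G25810 and JMT on arrays 1 to 4 (x axis), as deposited on the left and with arrays 1 and 4 multiplied by -1 on the right. Points are single probe values. On the left all 4 probes were positive on arrays 1 and 4 and negative on arrays 2 and 3, and on the right every value lay at or below -2.04.

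Anther genes set this sign. SWEET8, a sugar transporter on which pollen wall formation depends, averaged -3.71 ± 0.47, SHT, a spermidine acyltransferase of the tapetum, -3.66 ± 0.82, and ATA20, an anther protein, -2.96 ± 0.74 (SD, n = 4 arrays each). TUA1, a pollen alpha-tubulin, averaged -0.47 ± 0.26 (SD, n = 4). All 4 anther genes were below 0 on all 4 arrays, as the turning requires. Their low ratios stand beside those of SWEET9, JMT and AT3G25810, and the part of missing anthers in these was not tested. In whole inflorescences, fewer cells of a type and less RNA per cell cannot be told apart. Of the green tissue genes, 2 of 11 had a probe of their own, and SBPASE and PRK of the Calvin cycle averaged 0.54 and 0.35 (limma adjusted p = 0.103 and 0.295). Of the reference genes, 3 of 8 were measured, with means between 0.05 and 0.14.

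SWEET9 had log2 ratios of -5.23, -4.60, -5.27 and -4.42 on arrays 1, 2, 3 and 4. The 4 values fell in 2 pairs, arrays 1 and 3 lower and arrays 2 and 4 higher, within a range of 0.85. Its mean was -4.88 ± 0.44 (SD, n = 4), and as linear ratios the arrays put SWEET9 between 21.3-fold and 38.6-fold lower in pistillata. By its mean it held rank 5 from the lowest among the 5386 genes. Its ranks on arrays 1 to 4 were 29, 13, 8 and 109, so many more genes lay below it on array 4 than on the others. The table cuts values at a ratio of 100, a log2 ratio of 6.64 on either side, and the lowest SWEET9 value was still 1.37 above that limit.

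AT3G25810 had log2 ratios of -3.62, -3.63, -3.30 and -4.61 on arrays 1, 2, 3 and 4. Arrays 1 to 3 lay close together and array 4 was the lowest. The mean was -3.79 ± 0.57 (SD, n = 4), which is 13.8-fold lower in pistillata, with single arrays between 9.83-fold and 24.5-fold. The gene held rank 38 from the lowest by its mean. Its ranks on arrays 1 to 4 were 75, 45, 69 and 105, so more genes lay below it on array 4 than on the others, although its ratio was lowest there. Among the anther genes, SHT and ATA20 were also lowest on array 4, at -4.84 and -3.98, whereas SWEET8 and TUA1 were lowest on array 1, at -4.40 and -0.86.

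JMT was measured by 2 separate probes on each array. The first had log2 ratios of -3.16, -3.22, -3.38 and -2.82 on arrays 1 to 4, with a mean of -3.14 ± 0.24 (SD, n = 4). The second had -2.04, -2.79, -2.32 and -2.18, with a mean of -2.33 ± 0.33 (SD, n = 4). By these means JMT was 8.84-fold and 5.03-fold lower in pistillata, and the second was nearer to 0 than the first on 4 of 4 arrays, by 0.81 ± 0.33 on the log2 scale (SD, n = 4 arrays). Their mean gave JMT a ratio of -2.74 ± 0.23 (SD, n = 4), 6.67-fold lower in pistillata and rank 99 from the lowest. JMT had the smallest SD of the 3 genes, although its values average 2 probes and the others had 1 each. The SDs of its single probes, 0.24 and 0.33, were also below those of SWEET9 and AT3G25810, 0.44 and 0.57.

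A further probe lists JMT together with NAMT1, AT4G36470 and BSMT1, other SABATH methyltransferases, and so names none of them. Its log2 ratios were -1.55, -2.20, -1.95 and -2.46, with a mean of -2.04 ± 0.38 (SD, n = 4), nearer to 0 than either probe of JMT alone. AT4G36470, which also had a probe of its own, had 0.59, 0.01, 0.67 and -0.05 there and averaged 0.31 ± 0.38 (SD, n = 4; limma adjusted p = 0.281). NAMT1, a nicotinate methyltransferase, and BSMT1, which makes methyl benzoate and methyl salicylate, appear on a second shared probe with AT5G04380 and AT5G66430. That probe averaged 0.23 ± 0.40 (SD, n = 4; limma adjusted p = 0.431 over all probes).

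In order of the mean ratio, SWEET9 was lowest, AT3G25810 next and JMT the nearest to 0. SWEET9 lay below JMT on 4 of 4 arrays, by -2.14 ± 0.47 on the log2 scale (SD, n = 4). SWEET9 minus AT3G25810 was -1.62, -0.98, -1.97 and 0.20 on arrays 1 to 4, so the order of these neighbours was exchanged on array 4 and their mean difference of -1.09 was close to its SD of 0.95. AT3G25810 lay below JMT on 4 of 4 arrays, by -1.05 ± 0.75 (SD, n = 4), but the first JMT probe at -3.38 was below AT3G25810 at -3.30 on array 3. The means of the 2 JMT probes were themselves 0.81 apart.

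SWEET9 was the only gene of the nectary list with a probe of its own, out of 17. CRC, the YABBY regulator required for nectaries to form, the nectary invertase CWINV4, the sucrose phosphate synthases SPS1F and SPS2F, the auxin transporter PIN6, and MYB21, MYB24 and MYB57, which act downstream of jasmonate in flowers, had none and are not analysed here. Of the nectary list, SWEET9 alone therefore speaks in these data. Among 30 genes of sucrose synthesis, cleavage and transport, 2 were measured. The gene cwINV6, a cell wall invertase by its name only, averaged 0.00 by 2 probes, with single arrays between -0.20 and 0.32 (limma adjusted p = 0.989). ATSPS4F, a sucrose phosphate synthase, averaged 0.25 ± 0.23 (SD, n = 4; limma adjusted p = 0.244).

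Across all pathway lists, 21 genes other than SWEET9, JMT, AT3G25810 and the anther genes were measured, of 200 listed. None of them, 0 of 21, passed limma's test at an adjusted p of 0.05 in either direction, and 1 had an unadjusted p under 0.05, where 30.8% of all genes and 30.6% of all probes did. Over all 5386 genes, 5.79% were called lower and 2.75% higher, so at those shares few calls, if any, would fall among 21 genes. The median of the 21 was 0.07 on the log2 scale, where that of all genes was 0.16. The single gene under the unadjusted threshold was SAG29, also known as SWEET15, a sugar transporter of senescing leaves and developing seeds. The unadjusted share over all genes depends on the centring. Uncentred, 567 genes were lower and 1094 higher at an unadjusted limma p under 0.05. With each array centred on its median, 742 were lower and 541 higher, and 3 of the 21 pathway genes were under that threshold.

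**Figure D2:**
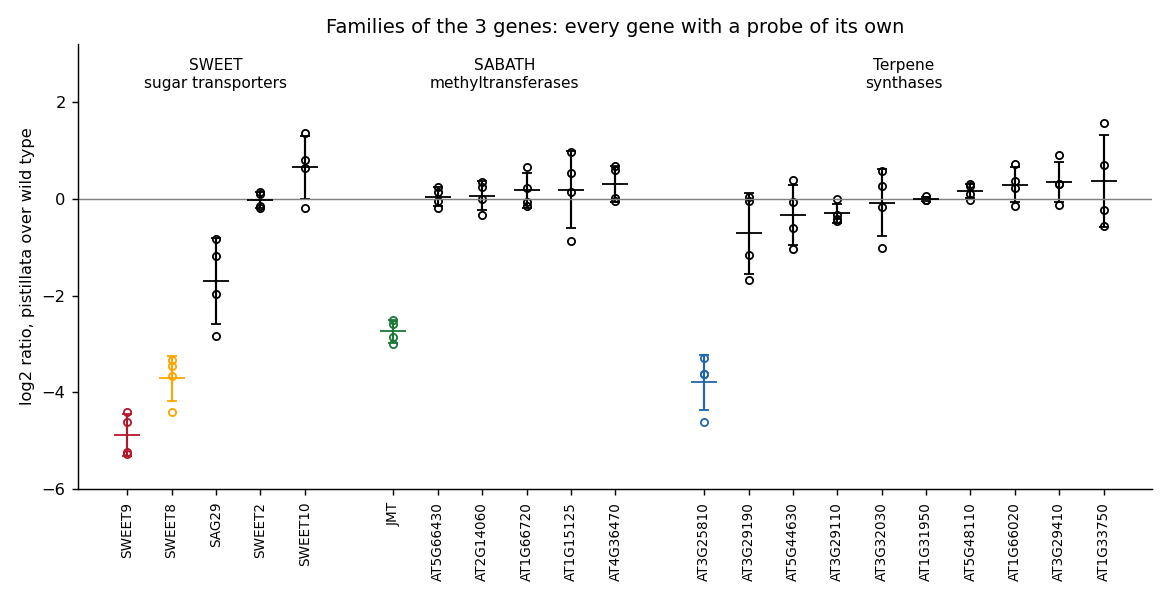
Log2 ratio of pistillata over wild type (y axis) for every SWEET, SABATH and terpene synthase gene with a probe of its own (x axis), with open circles for the 4 arrays, a horizontal mark for the mean and bars for the SD. SWEET9 in red, JMT in green and AT3G25810 in blue have the lowest mean of their family, SWEET8 in orange helped to set the sign of the arrays, and SAG29 averaged -1.70.

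The SWEET family transports sugars, and 5 of its 17 genes had a probe of their own. SAG29 had log2 ratios of -0.82, -1.96, -2.83 and -1.18 on arrays 1 to 4, below 0 on 4 of 4 arrays, and averaged -1.70 ± 0.89 (SD, n = 4). It did not pass (limma adjusted p = 0.0588). Under 4 alternatives SAG29 passed, with limma adjusted p of 0.0184 without capped probes, 0.0285 with trended and robust moderation, 0.0233 with array weights and 0.0295 with a term for channel orientation. In the other alternatives it did not pass. The largest limma adjusted p was 0.1855, without array 2, apart from the labels' channel order, under which the arrays largely cancel and no gene was called. SWEET2, a transporter of the vacuole membrane, averaged -0.03 ± 0.17, and SWEET10 averaged 0.65 ± 0.64 (SD, n = 4 each; limma adjusted p = 0.888 and 0.183). SWEET9 and SWEET8, at -4.88 and -3.71, did not overlap over the arrays, but the highest SWEET9 value, -4.42, lay next to the lowest SWEET8 value, -4.40.

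Probes shared by several SWEET genes name none of them. With the pair that lists SWEET8 set aside, 8 such probes were tested in a fit over all 26156 gene probes, in which 7.23% were called lower and 2.98% higher. Of the 8, 4 were lower and 0 higher. The probe that lists SWEET13 and SWEET14, transporters known from anthers, had -2.93, -2.65, -2.46 and -1.79 on arrays 1 to 4 (mean -2.46 ± 0.49, SD, n = 4; limma adjusted p = 0.00458). A probe that lists SWEET13, SWEET10 and SWEET14 averaged -2.14 ± 0.22, although SWEET10 alone stood at 0.65, and a probe that lists SWEET1 and SWEET3 averaged -2.17 ± 0.24 (SD, n = 4 each; limma adjusted p = 0.00168 and 0.0019). A probe that lists SWEET1, SWEET3 and SWEET2 was at -0.62 ± 0.24 (SD, n = 4; limma adjusted p = 0.0538). The probe that lists SWEET4 and AtVEX1, the pollen transporter also called SWEET5, averaged -1.85 ± 0.73 (SD, n = 4; limma adjusted p = 0.0279), and its adjusted p was 0.107, 0.114 and 0.106 without arrays 1, 2 and 3. Both probes for SWEET16 and SWEET17, transporters of the vacuole, lay within 0.12 of 0 (limma adjusted p = 0.655 and 0.618). The probe that lists SWEET6 and SWEET7 was above 0 on all 4 arrays, at 0.55, 1.06, 6.64 and 1.44, with the third value at the limit of the table (mean 2.43 ± 2.84, SD, n = 4; limma adjusted p = 0.22).

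SABATH enzymes methylate the carboxyl group of hormones and scent compounds. Besides JMT, 5 genes of this family were measured, and their means ran from 0.05 to 0.31. Limma called 0 of 5 in either direction, where 5.79% of all genes were lower and 2.75% higher. AT5G66430 was at 0.05, AT2G14060 at 0.07, AT1G66720 at 0.17 and AT1G15125 at 0.19 (limma adjusted p = 0.806, 0.768, 0.499 and 0.702). AT1G15125 varied most, with values from -0.88 on array 3 to 0.97 on array 4. Of all probes, 7.23% were called lower and 2.98% higher, so few calls would fall among 16. Of 16 shared SABATH probes that do not list JMT, 0 were lower and 1 was higher. That probe lists FAMT, a farnesoic acid methyltransferase, and AT3G44870, and averaged 0.77 ± 0.21 (SD, n = 4; limma adjusted p = 0.0267). It did not pass with any single array left out, at adjusted p between 0.0687 and 0.105 by limma. Before adjustment, 8 of the 16 shared probes had a limma p under 0.05, against 30.6% of all probes. Their means lay on both sides of 0, and some of the 8 list the same genes.

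**Figure D3:**
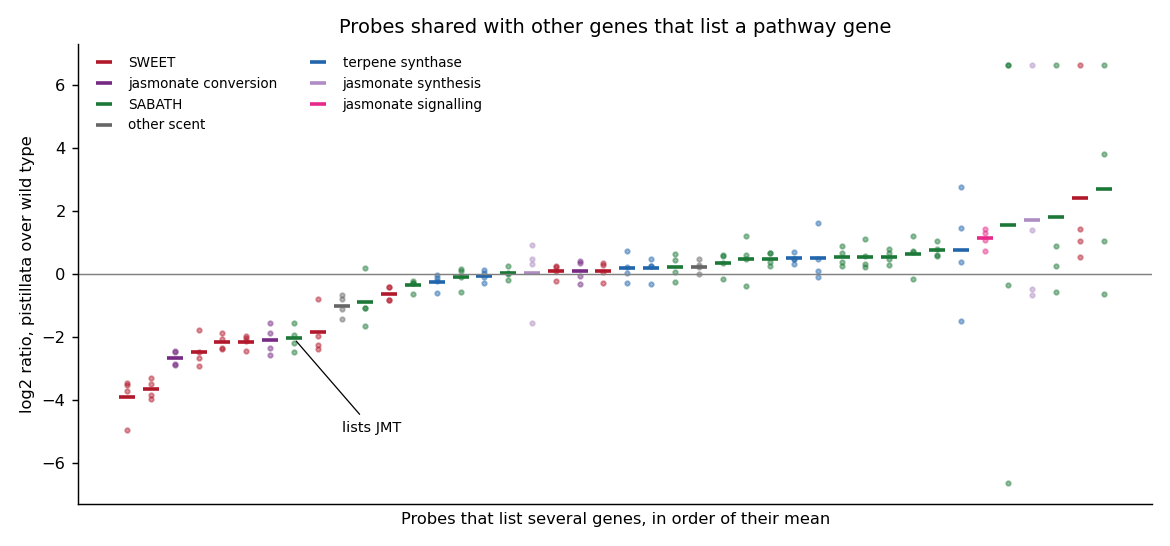
Log2 ratio of pistillata over wild type (y axis) for the probes that list several genes, at least one from a pathway list, in order of their mean (x axis). Dots are the 4 arrays and bars the mean, coloured by list. The probe that lists JMT, NAMT1, AT4G36470 and BSMT1 averaged -2.04, the probes with the lowest means list SWEET8, and several probes with the highest means have values at the upper limit of 6.64.

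Jasmonate genes had few probes of their own. Of 23 genes for jasmonate synthesis and 23 for its signalling, 0 had one, and of 17 that convert jasmonate to other forms, 1 did. JRG21, which encodes a jasmonic acid oxidase, had -0.02, 0.74, 1.04 and -0.22 on arrays 1 to 4 and averaged 0.38 ± 0.60 (SD, n = 4; limma adjusted p = 0.343). Of 3 shared probes for such genes, 2 were lower, where 7.23% of all probes were lower and 2.98% higher. Both list AT2G38240, a further jasmonic acid oxidase, so they need not stand for separate genes. The one that lists AT2G38240 and AT4G16330 averaged -2.66 ± 0.24 and the one that lists AT2G38240, AT5G05600, JRG21 and AT3G11180 averaged -2.08 ± 0.45 (SD, n = 4 each; limma adjusted p = 0.00115 and 0.00611). Another lists AT5G05600 and AT3G11180 without AT2G38240 and averaged 0.10 ± 0.34 (SD, n = 4; limma adjusted p = 0.714).

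Of the jasmonate signalling genes, a probe that lists the transcription factors MYC3 and MYC4 was higher in pistillata, with 1.42, 1.30, 0.75 and 1.07 on arrays 1 to 4 (mean 1.13 ± 0.30, SD, n = 4; limma adjusted p = 0.0144). Its adjusted p was 0.0604, 0.0794 and 0.0623 without arrays 1, 2 and 4. The 2 shared probes that list OPCL1, an acyl-CoA ligase of jasmonate synthesis, averaged 1.73 and 0.05 with SDs of 3.41 and 1.08 (limma adjusted p = 0.425 and 0.951), and the first had a value at the limit of the table.

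Terpene synthases were better covered, with 10 of 32 genes measured. Beside AT3G25810 at -3.79, the other 9 had means between -0.71 and 0.37 and a median of 0.00, with 0 of 9 called by limma and 0 with a p below 0.05 before adjustment, against 30.8% of all genes. AT5G44630, a sesquiterpene synthase known from the nectaries within the flower, had -1.05, -0.61, -0.07 and 0.39 on arrays 1 to 4, so that its arrays lay on both sides of 0 (mean -0.33 ± 0.63, SD, n = 4; limma adjusted p = 0.413). AT3G29190 averaged -0.71 ± 0.84, with its lowest value, -1.68, on array 1, and AT1G33750 averaged 0.37 ± 0.96 (SD, n = 4 each; limma adjusted p = 0.226 and 0.534). AT3G29110 was below 0 on 4 of 4 arrays at a mean of -0.30 ± 0.20 (SD, n = 4; limma adjusted p = 0.164). AT3G29410 and AT1G66020 stood at 0.35 and 0.29, AT5G48110 at 0.16, AT1G31950 at 0.00 and AT3G32030, by 2 probes, at -0.08 (limma adjusted p between 0.262 and 0.996).

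Of the 7 shared terpene synthase probes, limma called 0, and 1 had a p below 0.05 before adjustment, against 30.6% of all probes. One of them lists the 2 genes named TPS-CIN, which make the monoterpene 1,8-cineole and whose locus numbers, AT3G25820 and AT3G25830, follow that of AT3G25810. It had -0.59, -0.22, -0.04 and -0.14 on arrays 1 to 4 (mean -0.25 ± 0.24, SD, n = 4; limma adjusted p = 0.271 over all probes). AT1G31910, a phosphomevalonate kinase, was the only one of 20 genes of terpene precursor synthesis with a probe of its own and averaged -0.24 ± 0.22 (SD, n = 4; limma adjusted p = 0.257). Of 8 other scent genes, 0 had a probe of their own. CHAT, an acetyltransferase of leaf volatiles, appears with AT5G17540 on 2 shared probes, which averaged -0.997 ± 0.35 and 0.24 ± 0.19 (SD, n = 4 each; limma adjusted p = 0.0281 and 0.232). Of these, the lower one did not pass with any single array left out, at limma adjusted p between 0.0646 and 0.127.

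The genes whose ratios were most like each of the 3 over the 4 arrays were found by Euclidean distance in log2 units. Nearest to SWEET9 were BGLU36, of the beta-glucosidase family by its name, AT3G46750 and AT3G52620, at distances of 0.91, 1.05 and 1.09 and with means of -4.47, -4.46 and -5.21. The lowest value of AT3G52620 was -6.27 on array 1, where SWEET9 had -5.23. Nearest to AT3G25810 were AT3G21570, AT2G29790 and AT3G59510, at 0.59, 0.62 and 0.76 and with means of -3.72, -3.86 and -3.66. All of these were, as AT3G25810 was, lowest on array 4, at -4.08, -4.35 and -4.83. Nearest to JMT were AT2G41970, AT4G40020 and AT1G77730, at 0.44, 0.67 and 0.69 and with means of -2.53, -2.77 and -3.02. AT2G41970 and AT1G77730 were lowest on array 2, as JMT was, and AT4G40020 on array 1. Genes near to each other in this measure share only 4 arrays. Because they were chosen by these same values, a shared lowest array is largely a product of the choice.

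**Figure D4:**
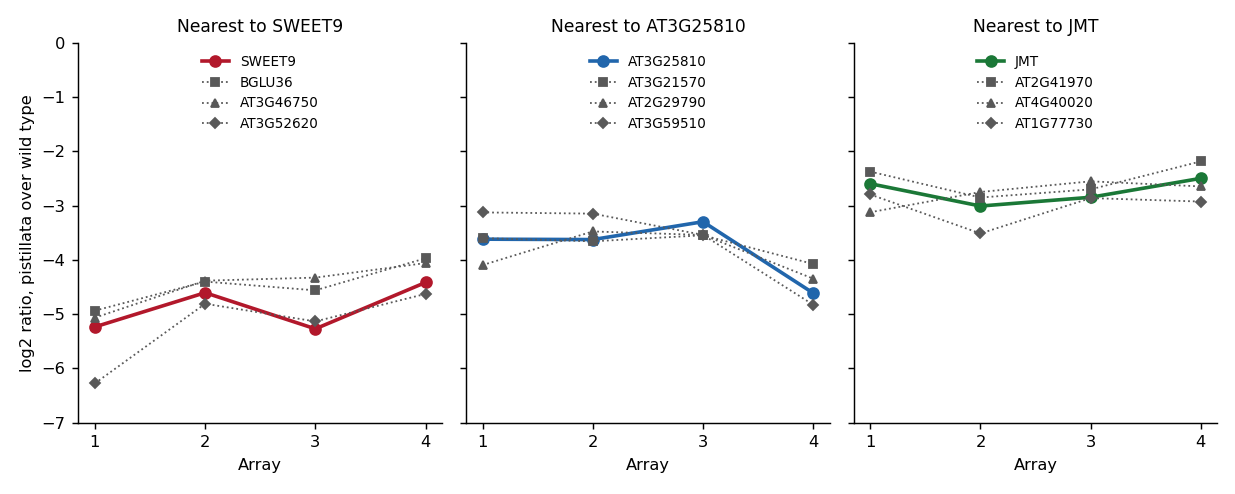
Log2 ratio of pistillata over wild type (y axis) on arrays 1 to 4 (x axis) for SWEET9, AT3G25810 and JMT in colour and, dotted, the 3 genes nearest to each by Euclidean distance. The genes near AT3G25810, chosen by these same values, dip on array 4, while SWEET9 and JMT have their highest value there, at -4.42 and -2.50.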

How the data were processed

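For every array the authors deposited a column of log2 values, each the ratio of channel signals, which per the labels were normalized by the methods of a previous study. Sources used here do not state the background correction, the normalization, the dyes or the numerator, and without signal strengths the level above background is unknown. The number of arrays, 4, limits the precision. The log2 scale was read from the limits at a ratio of 100 in the deposited values, and the centring stays unknown: the medians of gene probes were -0.12, 0.14, 0.11 and -0.08 on arrays 1 to 4.

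Of 26933 rows, 424 empty and 35 control spots were left out. Of 26474 gene probes, 5784 list 1 gene in the platform annotation, 7497 several and 13193 none. Of 5443 genes with their own probe, 5415 matched the gene table (assembly TAIR10.1), which gave symbols only, since no build is named for the array. Several probes of a gene were averaged.

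Arrays 1 and 4 were multiplied by -1. Genes and, separately, probes with values on all 4 arrays were tested with limma 3.58.1 in R 4.3.3 (lmFit with an intercept, eBayes, two-sided, Benjamini-Hochberg over all genes or all probes, threshold 0.05). The script was tested on simulated data. The genes and lists were chosen with earlier results of these data known. The genes named are the 3 described, every listed gene with its own probe, and the 3 nearest genes to each; shared probes were chosen after their values were seen. A planned comparison of protein sequences was not made. Alternatives were other centring and scaling, the labels' channel order, leaving out arrays or capped probes, probe medians, trended and robust moderation, array weights, a threshold of 0.01, values on at least 3 arrays, a channel term, single probes, and arrays averaged in pairs.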

Additional observations from a re-analysis of the deposited data

Results flagged for a closer look

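In 3 of 85 sets of 4 values, 1 array stood apart from the other 3, and chance gives about 1 in 20. The terpene synthase gene AT1G31950 had a log2 ratio of 0.056 on array 2, although its 4 values spanned very little. The probe that lists AtVEX1, SWEET8 and SWEET4 had -4.95 on array 4, and the probe that lists SWEET6 and SWEET7 had 6.64, the limit of the table, on array 3. No value of SWEET9, JMT or AT3G25810 stood apart in this way.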

How the results depend on the processing

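SWEET9, AT3G25810 and JMT moved by less than their SD under centring, scaling, capped probes left out, probe medians and each array left out. Centring each array on its median put the median over genes at 0.05, against 0.16 uncentred, and gave -4.99, -3.90 and -2.85. Without 1 array the means ran from -5.04 to -4.75 for SWEET9, from -3.95 to -3.51 for AT3G25810 and from -2.82 to -2.65 for JMT. Turned by the labels' channel order the arrays largely cancel, since 2 of the 4 then have the opposite sign: SWEET9 was at 0.038, JMT at 0.065, AT3G25810 at -0.17, SWEET8 at 0.16, TUA1 at 0.11, BGLU36 at 0.20, AT3G46750 at 0.27, AT3G52620 at 0.33, AT2G41970 at 0.085, AT4G40020 at 0.17 and AT1G77730 at 0.13, whereas SHT was at -0.50, ATA20 at -0.43, AT3G59510 at -0.52, AT3G21570 at -0.09 and AT2G29790 at -0.08, with 0 genes lower and 0 higher and 0 and 0 shared probes by limma (18 genes at an unadjusted p under 0.05, 8 lower and 10 higher).

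Over all genes, limma called 312 lower and 148 higher. Centring gave 353 and 76 (82.3% lower, against 67.8%), scaling as well 346 and 89 (79.5%), leaving out capped probes 415 and 311 (57.2%), trended and robust moderation 311 and 0 with 1278 higher at an unadjusted p under 0.05, array weights 395 and 365 (52.0%), a threshold of 0.01 145 and 19, the channel term 255 and 86, arrays averaged in pairs 123 and 21, and single probes 1890 and 779. Without 1 array there were 159 to 192 lower and 19 to 43 higher. The cause was not tested.

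Among pathway genes, 1 was lower, SAG29, without capped probes (-1.70), with trended and robust moderation (-1.70), array weights (-1.99) or the channel term (-1.70), against 0. Shared probes, a result added after the data were seen, gave 7 lower and 2 higher of 39 (17.9% and 5.13%). Of all probes, 7.23% were lower and 2.98% higher. Before adjustment, 18 of the 39 had a limma p under 0.05, against 30.6% of all probes. Some of the 7 list the same genes, SWEET13 and SWEET14 or AT2G38240, so they need not stand for separate genes. With arrays averaged in pairs, shared probes gave 4 lower and 1 higher. Their higher count was 4 without capped probes, 5 with array weights, 0 with trended moderation, 0 at 0.01, 1 with the channel term and 0 to 1 without 1 array, where 5 to 6 were lower. Uncalled genes changed sign in 43 of 390 cases. The pairing of pistillata with wild type lies inside each array, and the fit used it by testing the ratios. With only 1 group of arrays, no further pairing was possible.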
